A study of Arabidopsis thaliana with 36 samples.

Results

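The WRKY transcription factors of Arabidopsis thaliana were followed in 36 mRNA-seq libraries of seedlings exposed to chemicals that disturb protein folding in the endoplasmic reticulum (ER). The family members were 43 loci taken from a list of WRKY genes by locus name, out of 37336 loci in the count files, and the counts of each locus were summed over its transcript models. Enough counts for a test were found for 24 of the 43 loci, 21 of them with 1 transcript model, and the other 19 were not tested. The list is not the whole family: a further 29 loci carry a WRKY name in the gene table used, 8 of which passed the same filter, and they were not analysed here.

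Whole 12-day-old seedlings were soaked in water for 6 h, and RNA was sequenced from the 3' end, with 3 repeats in each of 12 groups. WT seedlings received Tm (5 µg/ml, tunicamycin, which blocks N-linked glycosylation), DTT (2 mM, which reduces disulfide bonds), AZC (5 mM, a proline analogue that is built into proteins) or mock (the solvent DMSO). Tm or mock was also given to 4 lines labelled as mutant in a pair of UPR genes: s1p/s2p, bzip17/60, bzip28/60 and bzip17/28. The labels call these lines double knockouts and give no alleles. Nothing in them says that repeats were grown apart, and the spread behind each p-value may then be technical. The inducer experiment asks how the unfolded protein response (UPR) differs between agents, and the mutants ask which of its regulators each response needs.

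WRKY proteins are plant transcription factors that bind the W box, a short DNA element, through a zinc-binding domain. Many are substrates or targets of mitogen-activated protein (MAP) kinase cascades, and members control each other's genes. In seedlings they are best known for immune responses, salicylate and camalexin synthesis, phosphate supply, heat tolerance and leaf senescence. The UPR runs in plants through the membrane-bound factors bZIP17 and bZIP28, which the proteases S1P and S2P release in the Golgi, and through bZIP60, whose mRNA is spliced by IRE1.

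The promoters of 5 members are shown because these genes changed with DTT and differ in W boxes. The sequences are the 250 bases before the annotated gene start in RefSeq's TAIR10.1, 5′ to 3′ on the gene's strand. Capitals mark W boxes, searched as TTGACC or TTGACT on both strands. The search counts overlapping matches, and none overlap in the sequences shown. WRKY33 lies on chr2:16107985-16108234 (plus strand), WRKY45 on chr3:327413-327662 (minus strand), WRKY17 on chr2:10439470-10439719 (minus strand), WRKY46 on chr2:19044956-19045205 (minus strand) and WRKY65 on chr1:10236087-10236336 (plus strand). These positions are those of the window.
WRKY33: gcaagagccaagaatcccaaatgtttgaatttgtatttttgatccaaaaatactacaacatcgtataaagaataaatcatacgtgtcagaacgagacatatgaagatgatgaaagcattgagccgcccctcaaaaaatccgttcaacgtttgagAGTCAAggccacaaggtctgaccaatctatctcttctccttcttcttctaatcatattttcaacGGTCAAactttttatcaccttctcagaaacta
WRKY45: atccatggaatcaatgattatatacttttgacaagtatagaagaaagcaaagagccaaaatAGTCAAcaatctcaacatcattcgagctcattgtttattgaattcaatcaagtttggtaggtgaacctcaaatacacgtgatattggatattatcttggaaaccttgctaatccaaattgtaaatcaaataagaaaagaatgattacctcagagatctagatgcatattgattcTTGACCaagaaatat
WRKY17: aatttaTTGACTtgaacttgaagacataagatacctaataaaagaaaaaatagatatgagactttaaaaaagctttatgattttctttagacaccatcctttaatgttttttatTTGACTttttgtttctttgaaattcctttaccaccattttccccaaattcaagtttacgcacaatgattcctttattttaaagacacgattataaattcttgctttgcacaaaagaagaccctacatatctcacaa
WRKY46: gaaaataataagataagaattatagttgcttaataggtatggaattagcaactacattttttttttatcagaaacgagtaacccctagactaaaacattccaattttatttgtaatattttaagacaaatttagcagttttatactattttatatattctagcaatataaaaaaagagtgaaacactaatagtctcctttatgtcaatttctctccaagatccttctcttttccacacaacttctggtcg
WRKY65: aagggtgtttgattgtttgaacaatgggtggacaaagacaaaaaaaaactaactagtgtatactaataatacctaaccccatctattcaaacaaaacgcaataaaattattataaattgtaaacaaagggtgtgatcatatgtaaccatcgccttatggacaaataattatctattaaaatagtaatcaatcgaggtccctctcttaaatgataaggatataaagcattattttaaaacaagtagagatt
A W box was found in 17 of 43 member promoters (39.5%) and in 8 of the 24 tested ones (33.3%), against 28.4% of 27443 protein-coding genes. At least 2 W boxes were found in 9 of 43 (20.9%) and 5 of 24 (20.8%), against 6.18% of protein-coding genes. WRKY33, WRKY45 and WRKY17 hold 2 each, while WRKY46 and WRKY65 hold none in this window. The ER stress element ERSE-I (CCAAT and CACG with 10 bases between them, both strands) was found in 0 of 43 member promoters, against 0.689% of protein-coding genes. These counts describe letters in 1 window and say nothing of binding.

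Libraries held 1278322 to 2810235 counts assigned to genes. Levels below are CPM, the count scaled to a fixed library size with TMM factors, and can be compared between libraries but not between genes. Each fold change is on the log2 scale, first group over second, with its standard error (SE). A gene is called where edgeR's quasi-likelihood test gives an adjusted p under 0.05 over all 10480 genes tested. The targeted genes followed the labels in part. BZIP17 averaged 0.185 to 0.936 CPM in the bzip17/28 and bzip17/60 groups and 7.45 CPM in WT mock. BZIP28 averaged 0.127 and 0.285 CPM in bzip17/28 with Tm and mock, but 10.4 and 11.3 CPM in bzip28/60 with Tm and mock, against 24.6 CPM in WT mock. BZIP60 averaged 29.9 to 36.1 CPM in the bzip28/60 and bzip17/60 groups, against 124.5 CPM in WT mock. The s1p/s2p label was not checked: S1P, with 3 transcript models, had only 2 counts in all 36 libraries together, and S2P was not examined. Where the lesions lie is not given, so 3' counts cannot check the protein. Reads on no feature averaged 2.77 to 3.19% in the mutant groups and 3.68 to 4.84% in the WT groups, so genotype and any processing batch cannot be told apart. In whole seedlings fewer cells of a type and less RNA per cell cannot be told apart either.

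Of the 19 members that were not tested, WRKY20, WRKY26, WRKY60, WRKY69 and WRKY41 had 0 counts in all 36 libraries. Totals over 36 libraries were 1 for WRKY1, 3 for WRKY42, 6 for WRKY72, 10 each for WRKY31 and WRKY57, 11 for WRKY55 and 22 for WRKY30. WRKY74 had 50, WRKY62 55, WRKY39 73, WRKY7 79, WRKY38 92, WRKY53 128 and WRKY11 184 counts. No library held more than 16 counts of any of these 19 genes. Several of them have 2 to 7 transcript models, and a read shared by models was set aside as ambiguous, so a low count does not show low expression. WRKY8, WRKY50 and WRKY15 passed the filter only through 1 or 2 groups, WRKY8 through bzip17/28 mock, WRKY50 through bzip17/28 Tm, and WRKY15 through bzip17/28 Tm and WT DTT.

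In WT seedlings DTT changed more of the tested WRKY genes than Tm or AZC did. With DTT 9 of 24 rose and 2 fell, and WRKY75, WRKY46, WRKY33, WRKY51, WRKY40 and WRKY6 rose by more than 2 on the log2 scale, from 2.08 ± 0.27 for WRKY6 to 2.89 ± 0.52 for WRKY75. With Tm 5 rose (WRKY33, WRKY4, WRKY3, WRKY22 and WRKY25) and 3 fell (WRKY28, WRKY21 and WRKY65). With AZC WRKY51, WRKY6 and WRKY25 rose and none fell. WRKY25 rose with all 3 agents. The number of calls was not compared between agents by a test, and the 3 comparisons share the WT mock libraries.

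The background rates differ between agents. The members were chosen with earlier results of these data known, and the 8 further WRKY loci that passed the filter are not counted. A higher share among the members may therefore come from that choice. With DTT 11 of 24 WRKY genes were called (45.8%), against 15.9% of all 10480 genes, of which 8.93% rose and 6.97% fell. With Tm 8 were called (33.3%), against 16.8% of all genes (8.65% rose, 8.13% fell). With AZC 3 were called (12.5%), against 5.44% of all genes (3.23% rose, 2.2% fell). The median log2 fold change of the 24 tested genes was 0.64 with DTT, against -0.02 for all genes, 0.42 with Tm, against 0.02, and 0.36 with AZC, against 0.00. The DTT figures include WRKY15, which passed the filter only through WT DTT and bzip17/28 Tm and was not called. Without WRKY15, 11 of 23 were called with DTT (47.8%) and the median was 0.57. The map of fold changes shows the WT calls in its left block.

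**Figure D1:**
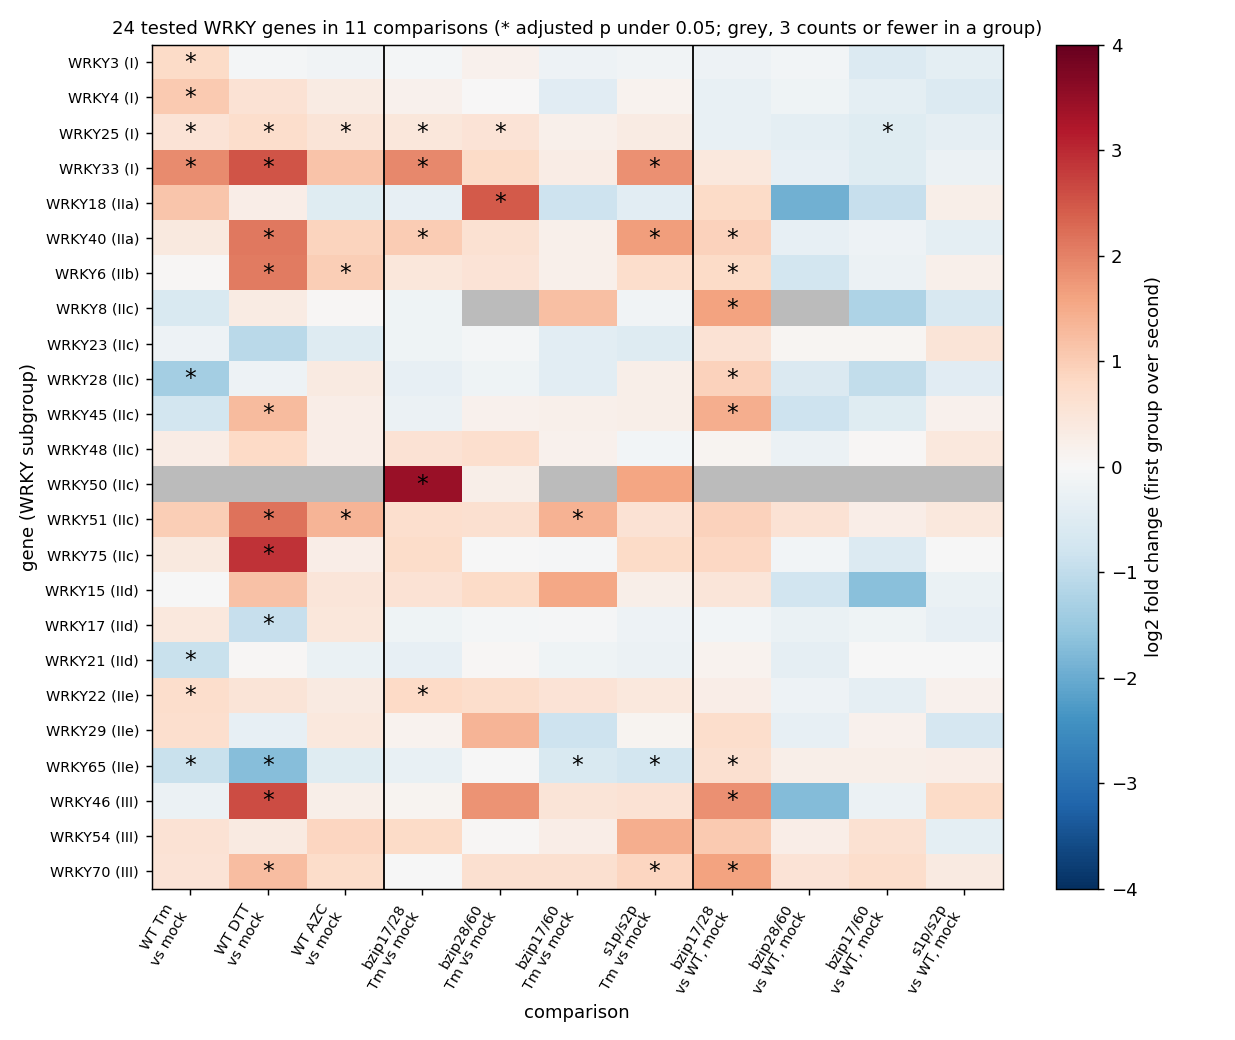
Log2 fold changes (colour) of the 24 tested WRKY genes (rows, with their subgroup) in 11 comparisons (columns): the 3 inducers in WT, Tm in 4 mutants, and 4 mutants against WT in mock. Stars mark adjusted p under 0.05 and grey cells have 3 counts or fewer in a group. The DTT column holds 11 stars, the Tm column of WT 8 and the AZC column 3, and bzip17/28 against WT in mock holds 8. The stars of WRKY8 there and of WRKY50 with Tm in bzip17/28 are not counted as calls in the text. Each of these genes passed the filter only through the bzip17/28 group where it was high.

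**Figure D2:**
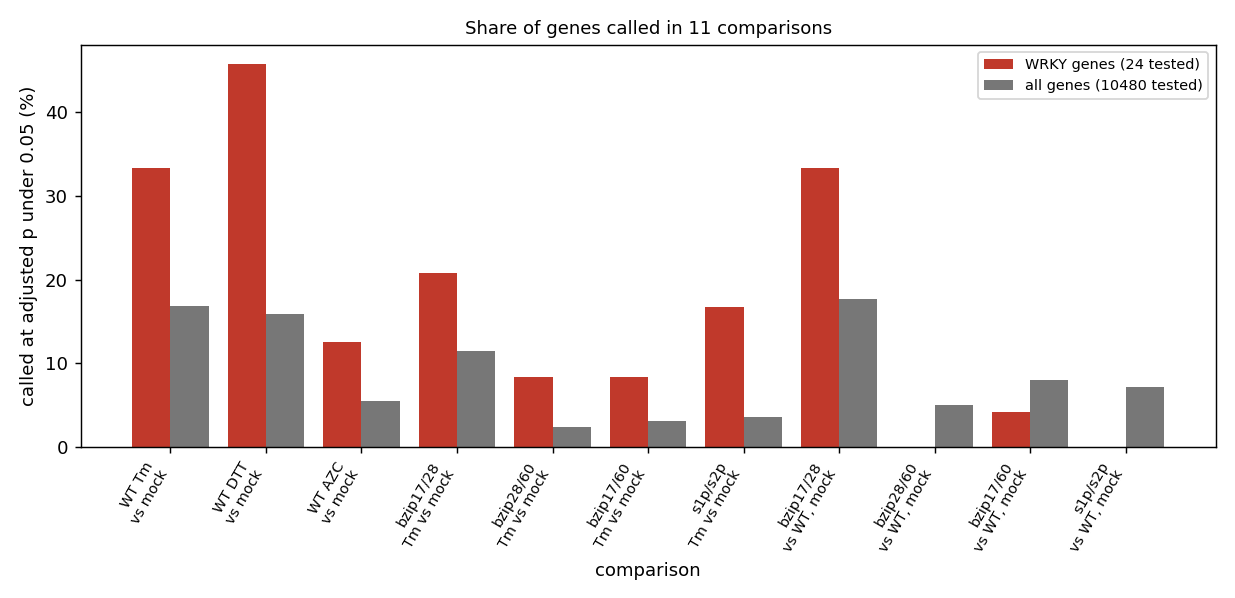
Percent of genes called at adjusted p under 0.05 (vertical axis) in the same 11 comparisons, for the 24 tested WRKY genes (red) and all 10480 genes tested (grey). The WRKY share is 45.8% with DTT in WT, against 15.9% of all genes, and 0% for bzip28/60 and s1p/s2p against WT in mock. Bars are over all 24 genes, so those of bzip17/28 count WRKY50 with Tm (20.8%) and WRKY8 in mock (33.3%). The text leaves out members that passed the filter through a group compared there (19% and 30.4%). Members were chosen with earlier results of these data known, which may raise the red bars.

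Subgroup I holds WRKY33 and WRKY25, which act in MAP kinase signalling and in heat tolerance, and WRKY3 and WRKY4, which act in resistance to necrotrophic fungi. WRKY33 (AT2G38470), which activates camalexin genes, had 57.8, 166 and 45.2 CPM with Tm, 129, 104 and 175 CPM with DTT and 46.2, 65.8 and 44.3 CPM with AZC, against 23.7, 27.6 and 20.1 CPM in mock. Each treated group lay above mock, and 1 Tm library stood far above the other two. The rise was 1.89 ± 0.34, adjusted p = 0.000299 with Tm and 2.51 ± 0.33, adjusted p = 1.45e-06 with DTT. With AZC the difference was 1.13 ± 0.35, adjusted p = 0.059, which was not called. Without WT Tm library 2 the Tm rise was 1.10 and still called. WRKY33 overlaps AT2G38480 on the opposite strand and the strand setting of the counting is not given, so their reads cannot be told apart. AT2G38480 itself was lower with DTT (-0.64 ± 0.22, adjusted p = 0.0415), and its part in the WRKY33 counts was not tested.

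WRKY25 (AT2G30250) had 102, 110.1 and 138 CPM with Tm, 109, 149 and 135 CPM with DTT and 103, 123 and 114 CPM with AZC, against 86.4, 84.3 and 69.1 CPM in mock. All 9 treated libraries lay above the 3 mock libraries, with rises of 0.56 ± 0.15, adjusted p = 0.00594 (Tm), 0.71 ± 0.15, adjusted p = 0.000249 (DTT) and 0.51 ± 0.15, adjusted p = 0.0275 (AZC). The Tm call was lost without WT mock 3 (0.44) or WT Tm 3 (0.41), and the AZC call without WT AZC 2 (0.45), WT AZC 3 (0.50) or WT mock 3 (0.41), and also without the filter on low counts (0.50) or with only its own libraries fitted (0.50). WRKY4 (AT1G13960), which overlaps AT1G13970 on the opposite strand, had 15.4, 19.0 and 16.5 CPM with Tm, 14.2, 12.9 and 8.73 CPM with DTT and 11.3, 4.9 and 14.1 CPM with AZC, against 7.91, 8.29 and 8.36 CPM in mock. Both Tm and DTT libraries lay above mock, but only Tm was called (1.04 ± 0.31, adjusted p = 0.0151), and not without WT mock 1 (1.02) or WT Tm 2 (0.95). WRKY3 (AT2G03340) had 38.5, 84.8 and 47.9 CPM with Tm, 37.3, 25.2 and 31.7 CPM with DTT and 29.6, 30.1 and 32.2 CPM with AZC, against 20.7, 40.8 and 39.0 CPM in mock. Its Tm and mock libraries overlapped, though the rise was called (0.76 ± 0.21, adjusted p = 0.00915), and not without WT mock 1 (0.50) or WT Tm 2 (0.37).

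Subgroups IIa and IIb hold WRKY18 and WRKY40, which bind each other and restrain immune responses, and WRKY6, which acts in senescence and represses the phosphate exporter gene PHO1. WRKY40 (AT1G80840) had 6.16, 11.9 and 9.36 CPM with Tm, 26.1, 29.7 and 34.9 CPM with DTT and 8.06, 19.6 and 12.1 CPM with AZC, against 10.3, 3.46 and 6.69 CPM in mock. Only the DTT libraries stood clear of mock (2.1 ± 0.32, adjusted p = 1.27e-06), while Tm gave 0.39 ± 0.39 and AZC 0.89 ± 0.36, neither called. WRKY40 overlaps AT1G80850 on the opposite strand. AT1G80850 was not called with DTT (-0.16 ± 0.32, adjusted p = 0.794), and its part in the WRKY40 counts was not tested. WRKY6 (AT1G62300) had 4.62, 20.6 and 9.91 CPM with Tm, 46.2, 40.0 and 55.6 CPM with DTT and 19.9, 25.2 and 20.8 CPM with AZC, against 9.12, 13.1 and 11.2 CPM in mock. The DTT and AZC libraries all lay above mock, and the Tm libraries spread around it. The rise was 2.08 ± 0.27, adjusted p = 3.22e-08 with DTT and 0.98 ± 0.29, adjusted p = 0.0347 with AZC, and the AZC call was lost without WT AZC 2 (0.88), WT AZC 3 (1.01), WT mock 1 (0.87) or WT mock 3 (0.98). WRKY18 (AT4G31800) had 12.3, 15.1 and 3.3 CPM with Tm, 4.15, 3.88 and 8.73 CPM with DTT and 2.15, 3.5 and 4.03 CPM with AZC, against 4.26, 2.76 and 6.13 CPM in mock. These groups overlapped and none was called against mock.

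Subgroup IIc held 8 tested genes. WRKY75 (AT5G13080) and WRKY45 (AT3G01970) promote phosphate uptake, and WRKY51 (AT5G64810) takes part in the repression of jasmonate signalling by salicylate. WRKY75 had 0.77, 13.5 and 1.65 CPM with Tm, 21.9, 25.2 and 37.3 CPM with DTT and 1.61, 7.7 and 4.7 CPM with AZC, against 3.65, 3.46 and 3.9 CPM in mock. Its DTT libraries stood apart from all 9 others, from raw counts of 37, 39 and 47 with DTT against 6, 5 and 7 in mock (2.89 ± 0.52, adjusted p = 8.96e-05). WRKY51 had 8.47, 8.71 and 6.61 CPM with Tm, 19.0, 12.9 and 21.4 CPM with DTT and 11.3, 7.7 and 10.7 CPM with AZC, against 2.43, 4.84 and 4.46 CPM in mock. No treated library overlapped mock, with 2.16 ± 0.34, adjusted p = 4.08e-06 for DTT and 1.35 ± 0.38, adjusted p = 0.0206 for AZC. Its Tm value of 0.99 ± 0.40, adjusted p = 0.0819 was not called, and the AZC call was lost without WT AZC 1 (1.25), WT AZC 3 (1.30), WT mock 1 (1.12) or WT mock 3 (1.47), and also by limma-voom (1.34).

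WRKY45 had 13.9, 22.2 and 7.71 CPM with Tm, 46.8, 60.7 and 61.1 CPM with DTT and 22.0, 35.7 and 28.2 CPM with AZC, against 28.6, 20.7 and 20.6 CPM in mock. Again only DTT stood clear of mock (1.26 ± 0.29, adjusted p = 0.0017). WRKY28 (AT4G18170), an activator of the salicylate synthesis gene ICS1, had 5.39, 6.34 and 4.41 CPM with Tm, 12.4, 11.6 and 11.9 CPM with DTT and 11.3, 21.7 and 21.5 CPM with AZC, against 10.9, 17.3 and 13.4 CPM in mock. It fell with Tm, without overlap (-1.37 ± 0.41, adjusted p = 0.0162), and the call was lost without WT mock 2 (-1.20) or WT Tm 3 (-1.22). WRKY50 (AT5G26170), a close relative of WRKY51, had 1 count over the Tm libraries, 5 over the DTT libraries and 3 over the AZC libraries, against 0 in mock. WRKY8, WRKY23 and WRKY48 were not called with any agent.

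**Figure D3:**
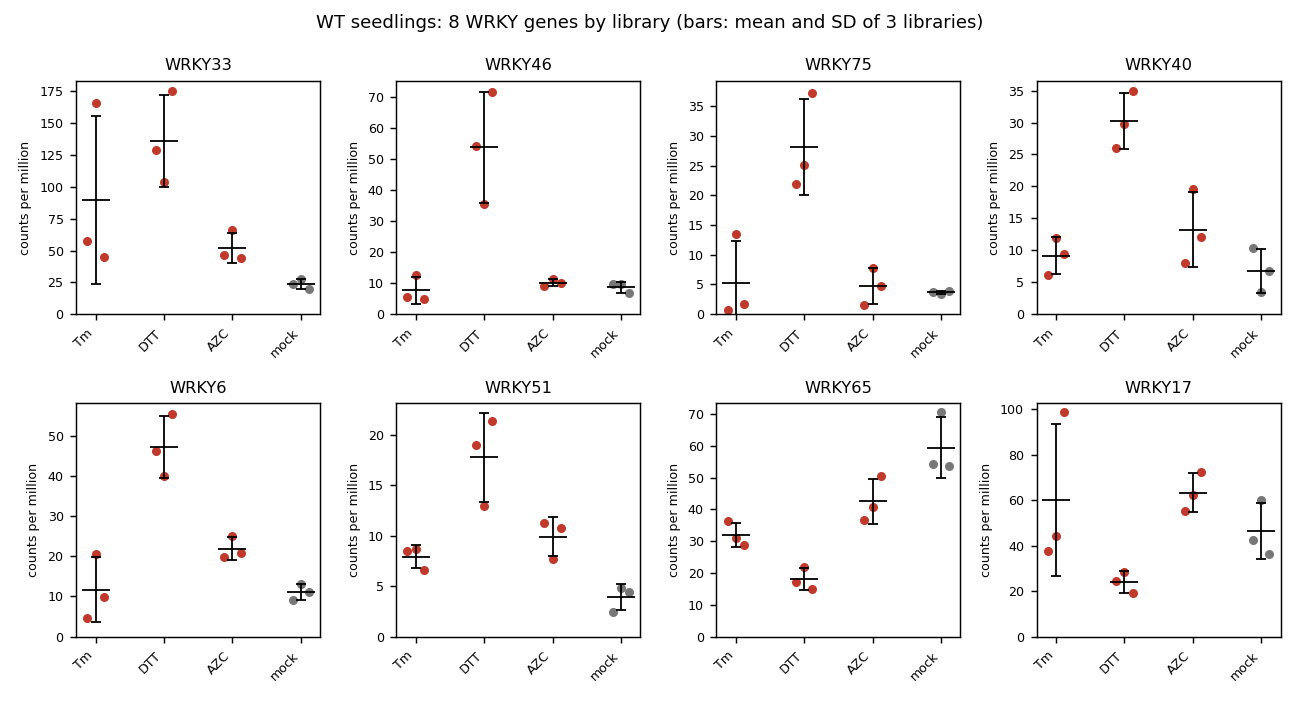
CPM (vertical axes) of 8 WRKY genes in each WT library, with Tm, DTT and AZC in red and mock in grey; horizontal bars are means and error bars SD of 3 libraries. For WRKY75, WRKY46 and WRKY40 the DTT libraries lie above all others, and for WRKY65 and WRKY17 they lie below all others.

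Subgroup IId proteins bind calmodulin. WRKY21 (AT2G30590) had 153, 73.7 and 85.9 CPM with Tm, 202, 224 and 175 CPM with DTT and 161, 132 and 189 CPM with AZC, against 181, 215 and 188 CPM in mock. The Tm libraries lay below mock (-0.91 ± 0.16, adjusted p = 9.04e-05), and DTT and AZC were not called. WRKY17 (AT2G24570), which restrains basal resistance, had 37.8, 44.4 and 98.6 CPM with Tm, 24.3, 28.4 and 19.0 CPM with DTT and 55.4, 62.3 and 72.5 CPM with AZC, against 42.6, 60.1 and 36.2 CPM in mock. It fell with DTT, to below every other WT library (-0.93 ± 0.24, adjusted p = 0.00498), a call lost without WT mock 2 (-0.68).

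In subgroup IIe, WRKY22 (AT4G01250) and WRKY29 lie downstream of the MAP kinase cascade of flagellin perception. WRKY65 (AT1G29280) had 36.2, 30.9 and 28.6 CPM with Tm, 17.2, 22.0 and 15.1 CPM with DTT and 36.6, 40.6 and 50.3 CPM with AZC, against 54.1, 70.5 and 53.5 CPM in mock. All 9 treated libraries lay below the mock libraries, DTT lowest. WRKY65 fell with Tm (-0.90 ± 0.17, adjusted p = 0.000251) and DTT (-1.70 ± 0.19, adjusted p = 1.02e-09), and the AZC value was not called (-0.48 ± 0.17, adjusted p = 0.0821). WRKY22 had 33.1, 35.6 and 46.3 CPM with Tm, 34.4, 36.8 and 30.2 CPM with DTT and 20.97, 37.8 and 34.2 CPM with AZC, against 29.8, 24.2 and 17.8 CPM in mock. It rose with Tm, just clear of mock (0.70 ± 0.23, adjusted p = 0.0284), and was not called without WT mock 2 (0.71), WT mock 3 (0.50), WT Tm 2 (0.74) or WT Tm 3 (0.53).

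Subgroup III includes WRKY46, WRKY54 and WRKY70, which act together in salicylate signalling and growth. WRKY46 (AT2G46400) had 5.39, 12.7 and 4.96 CPM with Tm, 53.9, 35.5 and 71.4 CPM with DTT and 9.14, 11.2 and 10.07 CPM with AZC, against 9.73, 9.68 and 6.69 CPM in mock. Only DTT stood above mock without overlap and with a call (2.62 ± 0.39, adjusted p = 5.9e-06), while Tm gave -0.22 ± 0.54 and AZC 0.22 ± 0.50. WRKY70 (AT3G56400) had 75.5, 48.3 and 72.2 CPM with Tm, 94.2, 129 and 92.9 CPM with DTT and 60.8, 65.8 and 99.98 CPM with AZC, against 58.4, 43.5 and 32.9 CPM in mock. It rose with DTT (1.24 ± 0.24, adjusted p = 0.000239), and AZC, also above mock in every library, was not called (0.75 ± 0.24, adjusted p = 0.0694). WRKY54 was not called with any agent.

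Set against each other, Tm and DTT gave the most calls of the 3 pairs of agents. There 12 of 24 WRKY genes were called, against 23.9% of all genes, with WRKY3, WRKY17 and WRKY65 higher and 9 lower with Tm than with DTT. The largest gaps were in WRKY46 (-2.84 ± 0.41) and WRKY75 (-2.49 ± 0.51), followed by WRKY6, WRKY45, WRKY40, WRKY28, WRKY51, WRKY21 and WRKY70 at -2.03 to -0.68. WRKY33 did not differ by the test (-0.63 ± 0.29, adjusted p = 0.116, 95% interval -1.22 to -0.03). Between DTT and AZC 9 were called, against 17.3% of all genes: WRKY33, WRKY40, WRKY6, WRKY45, WRKY51, WRKY75 and WRKY46 were higher with DTT, by 0.81 to 2.63, and WRKY17 and WRKY65 lower. Between Tm and AZC 6 were called, against 18.3% of all genes: WRKY3 (0.88 ± 0.21) and WRKY18 (1.60 ± 0.51) were higher with Tm, and WRKY6, WRKY28, WRKY45 and WRKY21 lower. Without WT Tm library 2 that last count was 3. Leaving WRKY15 out, the calls were 12 of 23 between Tm and DTT and 9 of 23 between DTT and AZC.

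Some of these calls depended on single libraries or on the fit. Between Tm and DTT, WRKY28 lost its call without any 1 of the 6 libraries (-1.33 to -1.03), WRKY3 without WT Tm 2 (0.44), and WRKY70 without WT DTT 2 (-0.52), WT Tm 2 (-0.55) or WT Tm 3 (-0.77). In the same pair WRKY3 was also not called with only its own libraries fitted (0.85), WRKY28 with only its own libraries fitted (-1.17) or by limma-voom (-1.16), and WRKY70 with only its own libraries fitted (-0.68) or by limma-voom (-0.69). WRKY65 was not called with only its own libraries fitted (0.81) or by limma-voom (0.79), nor WRKY51 by limma-voom (-1.13). Between DTT and AZC, WRKY45 lost its call without WT AZC 1 (0.81), WT DTT 2 (0.91) or WT DTT 3 (0.92), and WRKY51 without WT AZC 1 (0.93), WT AZC 2 (0.68), WT AZC 3 (0.86), WT DTT 1 (0.74) or WT DTT 3 (0.68). WRKY51 was also not called without the filter on low counts (0.81), by DESeq2 (0.83), with only its own libraries fitted (0.80) or by limma-voom (0.78). Between Tm and AZC, WRKY3 lost its call without WT Tm 2 (0.49), WRKY18 without WT AZC 1 (1.32), WT Tm 1 (1.38) or WT Tm 2 (1.17) and WRKY6 without WT AZC 2 (-0.84), WT Tm 1 (-0.60) or WT Tm 3 (-0.80). In the same pair WRKY45 lost its call without WT AZC 2 (-0.85), WT AZC 3 (-1.03), WT Tm 1 (-1.03) or WT Tm 3 (-0.65), and WRKY21 without WT AZC 3 (-0.51) or WT Tm 2 (-0.46). WRKY28 was not called by limma-voom (-1.64). Fitted on its own libraries, Tm against AZC called 1 gene, and by limma-voom 2.

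Spread between libraries was widest with Tm in WT: edgeR's estimate of the biological variation was 28.2% there and 5.57 to 14.3% in each of the other 11 groups. Fitted on its own 6 libraries the Tm comparison called WRKY33 alone, and limma-voom with a spread per group called WRKY33, WRKY21 and WRKY65. For counts under alternative fits, here and elsewhere, the share of all genes called in the same fit is not given. A change of such a count cannot be read as particular to the WRKY genes. Without WT Tm library 2 the main fit of Tm against mock called 5. The DTT count stayed at 10 to 12 without any 1 library, over all members that passed the filter of each fit. Over the 23 tested genes other than WRKY15 it was 10 to 11. The AZC count was 0 without WT mock library 3, and 1 without WT AZC library 2 or 3.

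Root and shoot markers were read beside these results. Their summed levels, here and below, were scaled by library size alone, without TMM factors. With DTT 10 of 10 root markers fell and none rose, and their summed level was 142 to 166 CPM with DTT, against 295 to 325 CPM in mock. With AZC 7 of 10 root markers fell (summed level 281 to 335 CPM), and with Tm 1 fell (255 to 402 CPM). No shoot marker of 8 was called with DTT or AZC and 1 was higher with Tm. The part of these tissue markers in the WRKY results was not tested.

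Genes that act with WRKY factors were described from 6 lists, whose members were chosen with earlier results of these data known. With DTT, of 9 tested genes for MAP kinases and WRKY-binding VQ proteins 5 rose and none fell, and those with the lowest p were the kinase kinases MKK9 (1.51 ± 0.21) and MKK4 (1.13 ± 0.24) and MEKK1 (0.87 ± 0.15). Of 14 immune-response genes 9 rose, with the lowest p for the ethylene response factor ERF6 (3.77 ± 0.21), NHL10 (3.83 ± 0.33) and the zinc-finger factor ZAT12 (2.26 ± 0.21). Of 6 salicylate genes 4 rose, among them the regulators PAD4 (1.81 ± 0.24), SARD1 (1.78 ± 0.57) and NPR1 (0.57 ± 0.19). Of 6 genes for camalexin, related indoles and ethylene 5 rose, with the lowest p for the oxidase genes CYP82C2 (6.14 ± 0.54) and CYP71A12 (3.22 ± 0.43) and the ethylene synthesis gene ACS6 (1.79 ± 0.30). The 3 senescence genes tested rose (NAP 1.30 ± 0.19, ORE1 1.01 ± 0.20, PAO 0.50 ± 0.18). Of 9 phosphate genes SPX2 rose (0.73 ± 0.23), and the transporter gene PHT1;1 (-3.92 ± 0.31) and the exporter gene PHO1 (-1.0 ± 0.32) fell. Calls with DTT made up 33.3% of the phosphate list and 55.6 to 100% of the other lists, against 15.9% of all genes.

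The same lists held fewer calls with the other agents, for which the share of all genes called was 16.8% (Tm) and 5.44% (AZC). With Tm they numbered 1 of 9 for MAP kinases and VQ proteins (MPK3, 1.33 ± 0.23), 2 of 14 for immune response (ERF104 0.67 ± 0.20, ZAT10 0.78 ± 0.25), 1 of 6 for salicylate (NPR1 0.56 ± 0.19), 0 of 6 for camalexin and ethylene and 1 of 3 for senescence (NAP 0.69 ± 0.20). Of the phosphate list PHF1 rose (0.90 ± 0.22) and RNS1 fell (-1.89 ± 0.46). These Tm calls made up 0 to 16.7% of the MAP kinase, immune, salicylate and camalexin lists, no more than the share of all genes. They made up 22.2% of the phosphate and 33.3% of the senescence list. With AZC no gene of the MAP kinase, camalexin or senescence lists was called, and 5 of 14 immune genes rose, with the lowest p for ERF6 (1.44 ± 0.22), ZAT12 (1.32 ± 0.21) and ERF104 (0.78 ± 0.19). PAD4 rose (1.11 ± 0.25), SPX1 rose (0.66 ± 0.19) and PHT1;1 fell (-1.0 ± 0.22). Calls with AZC made up 16.7% of the salicylate, 22.2% of the phosphate and 35.7% of the immune list, against 5.44% of all genes. As a check of the treatment, of 7 UPR genes 7 rose with DTT, 7 with Tm and 6 with AZC.

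Tm was also given to the 4 mutants, to ask which WRKY responses remain in each line. In bzip17/28 WRKY33, WRKY40, WRKY22 and WRKY25 rose with Tm, 4 of 21 genes (19%), against 11.5% of all genes called. WRKY50, WRKY15 and WRKY8 are left out of this count because they passed the filter through the Tm or mock group of this line. In s1p/s2p WRKY33, WRKY40 and WRKY70 rose and WRKY65 fell, 4 calls against 3.55% of all genes. In bzip28/60 WRKY18 and WRKY25 rose, 2 calls against 2.39%, and in bzip17/60 WRKY51 rose and WRKY65 fell, 2 calls against 3.07%. The bzip17/28 count was 2 without bzip17/28 mock library 3 or bzip17/28 Tm library 2. The bzip28/60 count was 0 without bzip28/60 Tm library 1, and 1 without Tm library 2 or any 1 mock library of that line. The bzip17/60 count was 1 without bzip17/60 mock library 1 or 2 or Tm library 3.

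WRKY33 had 100.2, 148 and 114 CPM with Tm and 32.3, 33.4 and 30.0 CPM in mock in bzip17/28. In s1p/s2p it had 57.1, 86.7 and 71.1 CPM with Tm and 27.0, 19.2 and 15.0 CPM in mock. In these 2 lines Tm and mock did not overlap, and the rises of 1.92 ± 0.30, adjusted p = 2.25e-05 in bzip17/28 and 1.82 ± 0.33, adjusted p = 0.000624 in s1p/s2p stood beside 1.89 in WT. In bzip28/60 it had 33.5, 33.3 and 29.2 CPM with Tm and 17.6, 17.0 and 21.8 CPM in mock. In bzip17/60 it had 19.9, 21.8 and 20.4 CPM with Tm and 17.2, 14.7 and 19.4 CPM in mock. Tm libraries of both lines lay above their mock libraries but no higher than 33.5 CPM, below every WT Tm library. The differences from mock were 0.76 ± 0.35, adjusted p = 0.384 in bzip28/60 and 0.28 ± 0.39, adjusted p = 0.861 in bzip17/60, neither called. The bzip28/60 value was called with only its own libraries fitted (0.76) and by limma-voom (0.76).

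Tested directly, the WRKY33 response to Tm did not differ from that of WT past the threshold in any line. The difference was -1.60 ± 0.52, adjusted p = 0.083 in bzip17/60 (95% interval -2.69 to -0.52) and -1.12 ± 0.49, adjusted p = 0.208 in bzip28/60 (-2.14 to -0.10). It was 0.03 ± 0.47, adjusted p = 0.982 in bzip17/28 (-0.93 to 1.00) and -0.06 ± 0.49, adjusted p = 0.967 in s1p/s2p (-1.08 to 0.95). Another 4 comparisons, between mutant responses, were added after the levels had been seen. The WRKY33 response of bzip17/28 minus that of bzip17/60 was 1.63 ± 0.49, adjusted p = 0.098, and minus that of bzip28/60 1.16 ± 0.46, adjusted p = 0.261. The response of s1p/s2p minus that of bzip17/60 was 1.54 ± 0.52, adjusted p = 0.415, and minus that of bzip28/60 1.06 ± 0.49, adjusted p = 0.999. None of the 4 passed. Over the 24 genes, the added comparisons with bzip17/60 called 0 (bzip17/28, 1.81% of all genes called) and 0 (s1p/s2p, 0.363%). With bzip28/60 they called 1 (bzip17/28, 2.49%) and 0 (s1p/s2p, 0.429%). Of bzip17/28 against bzip17/60, with 0 calls by edgeR, 2 genes had an unadjusted p under 0.05, and DESeq2 called 1 and limma-voom 1. Of s1p/s2p against bzip17/60 it was 2 genes, with 0 by DESeq2 and 1 by limma-voom. Of s1p/s2p against bzip28/60 it was 4 genes, with 0 by DESeq2 and 0 by limma-voom, and edgeR called 1 without s1p/s2p mock library 2.

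WRKY40 rose with Tm in bzip17/28 and s1p/s2p. It had 27.5, 33.6 and 20.6 CPM with Tm and 13.3, 14.0 and 12.6 CPM in mock in bzip17/28 (1.02 ± 0.25, adjusted p = 0.00365). In s1p/s2p it had 16.1, 21.3 and 13.2 CPM with Tm and 5.7, 4.66 and 5.44 CPM in mock (1.69 ± 0.33, adjusted p = 0.000487). Neither pair of groups overlapped, and the bzip17/28 call was lost without bzip17/28 Tm 2 (0.84). WT gave 0.39 ± 0.39, and the differences from WT were 0.63 ± 0.47, adjusted p = 0.514 in bzip17/28 and 1.29 ± 0.52, adjusted p = 0.178 in s1p/s2p, not called.

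WRKY18 rose with Tm in bzip28/60. It had 7.78, 4.68 and 6.78 CPM with Tm and 1.17, 0.97 and 1.26 CPM in mock there, without overlap, from raw counts of 20, 10 and 16 with Tm and 3, 2 and 3 in mock (2.44 ± 0.56, adjusted p = 0.00645). The call was lost without bzip28/60 Tm 1 (2.27). In bzip17/28 it had 4.66, 6.48 and 6.86 CPM with Tm and 8.42, 3.3 and 11.3 CPM in mock, which overlapped. The response of bzip17/28 minus that of bzip28/60 was -2.77 ± 0.70, adjusted p = 0.0145, in a comparison added after the data were seen. That difference was not called without bzip28/60 mock 1 (-2.79), bzip28/60 Tm 1 (-2.60) or bzip17/28 mock 3 (-2.37). WRKY18 has 3 transcript models and is undercounted.

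WRKY21 and WRKY65 fell with Tm in WT. Their responses differed from that of WT by the test in bzip28/60, and that of WRKY21 also in bzip17/60. WRKY21 had 167, 155 and 147 CPM with Tm and 137, 145 and 170.5 CPM in mock in bzip28/60. In bzip17/60 it had 157, 192 and 163 CPM with Tm and 188, 192 and 193 CPM in mock. The Tm libraries lay within the range of mock in bzip28/60, and in bzip17/60 1 lay within it and the other two below. The response differed from that of WT by 0.96 ± 0.23, adjusted p = 0.0081 in bzip28/60 and by 0.75 ± 0.23, adjusted p = 0.0484 in bzip17/60. The bzip17/60 call was lost without bzip17/60 mock 1 (0.76), bzip17/60 mock 2 (0.75), bzip17/60 mock 3 (0.76), bzip17/60 Tm 1 (0.82), bzip17/60 Tm 2 (0.67), bzip17/60 Tm 3 (0.79), WT mock 1 (0.81), WT mock 2 (0.69), WT Tm 2 (0.58) or WT Tm 3 (0.62). It was also lost with only its own libraries fitted (0.77), by limma-voom (0.81), with a replicate block (0.75) or without robust fitting (0.75), and the bzip28/60 call with only its own libraries fitted (0.95). WRKY21 gave 0.59 ± 0.22, adjusted p = 0.129 in bzip17/28 and 0.68 ± 0.23, adjusted p = 0.0985 in s1p/s2p, not called.

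WRKY65 had 70.8, 76.8 and 61.9 CPM with Tm and 63.0, 85.4 and 63.2 CPM in mock in bzip28/60. These overlapped, and the response differed from that of WT by 0.89 ± 0.23, adjusted p = 0.0162, a call lost without bzip28/60 mock 1 (0.81) or WT mock 2 (0.76), and also with only its own libraries fitted (0.88) or by limma-voom (0.89). In bzip17/60 it had 50.6, 48.1 and 38.3 CPM with Tm and 70.9, 62.9 and 74.5 CPM in mock. In s1p/s2p it had 40.5, 46.9 and 40.7 CPM with Tm and 66.9, 68.8 and 77.0 CPM in mock. It fell in both without overlap (-0.60 ± 0.15, adjusted p = 0.0144 in bzip17/60 and -0.73 ± 0.16, adjusted p = 0.0015 in s1p/s2p). The fall in bzip17/60 was not called with library size alone (-0.50) as the scaling, nor without bzip17/60 mock 1 (-0.58), bzip17/60 mock 3 (-0.55) or bzip17/60 Tm 3 (-0.49). In bzip17/28 its change with Tm was -0.29 ± 0.14, adjusted p = 0.219.

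The calls against the WT response stood as follows: 2 in bzip28/60 (WRKY21 and WRKY65), against 4.06% of all genes, and 1 in bzip17/60 (WRKY21), against 3.72%. With edgeR 0 were called in bzip17/28, against 3.96% of all genes, and 0 in s1p/s2p, against 1.95%. At an unadjusted p under 0.05 there were 6 in bzip17/28 and 7 in s1p/s2p, and DESeq2 and limma-voom called 0 in each. Fitted on their own libraries alone, the comparisons with WT called 0 in bzip28/60 and 0 in bzip17/60. Without WT Tm library 1 they called 4 in bzip17/28, 4 in bzip17/60 and 2 in s1p/s2p. Without WT Tm library 3 they called 1 in bzip17/28, and without s1p/s2p Tm library 3 they called 1 in s1p/s2p.

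**Figure D4:**
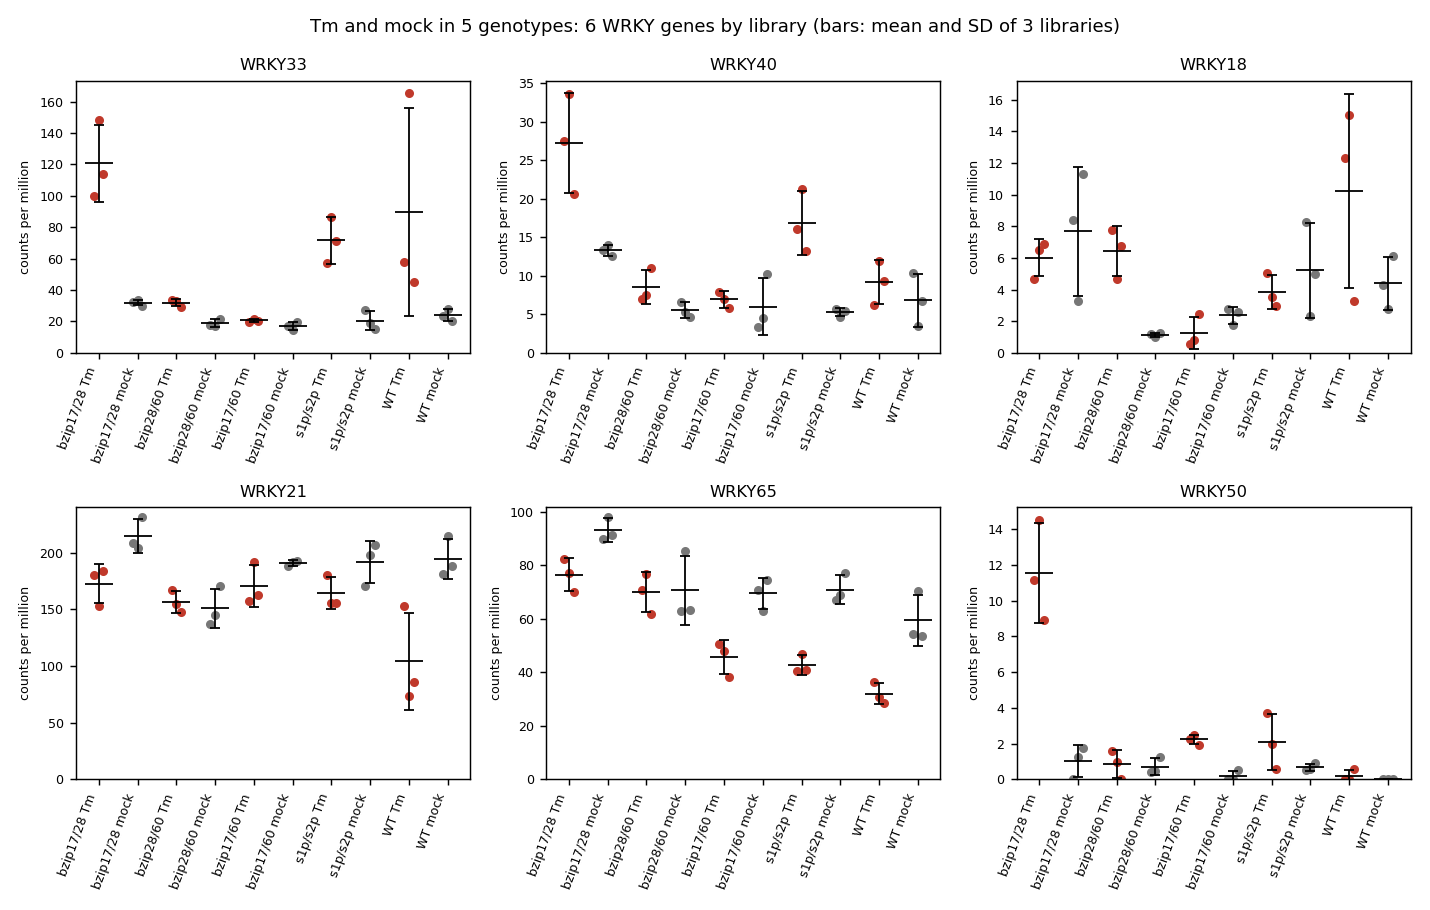
CPM (vertical axes) of 6 WRKY genes with Tm (red) and mock (grey) in bzip17/28, bzip28/60, bzip17/60, s1p/s2p and WT; horizontal bars are means and error bars SD of 3 libraries. WRKY33 with Tm stays at or under 33.5 CPM in bzip28/60 and bzip17/60 and lies at 45.2 CPM or above in the other lines. WRKY50 with Tm reaches 8.92 to 14.5 CPM in bzip17/28, the only group through which it passed the filter.

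Further WRKY genes were higher with Tm in some of the mutant lines, and a call in one line and not in another does not show that the lines differ. WRKY50, which with WRKY51 acts in the crosstalk of salicylate and jasmonate, had 11.2, 14.5 and 8.92 CPM with Tm and 0, 1.24 and 1.74 CPM in mock in bzip17/28. The gene passed the filter only through this Tm group, so the values are described and no test is given. In bzip17/60 it had 14 counts with Tm and 1 in mock, a ratio of 13.4 with a 95% interval for counting error of 2.05 to 568. WRKY51 rose in bzip17/60, with 13.1, 14.4 and 9.7 CPM with Tm and 5.54, 2.68 and 6.13 CPM in mock (1.40 ± 0.32, adjusted p = 0.00446). Its groups did not overlap, and the call was lost without bzip17/60 mock 2 (1.08). WRKY70 had 95.3, 131 and 80.7 CPM with Tm and 70.5, 51.3 and 49.9 CPM in mock in s1p/s2p (0.85 ± 0.22, adjusted p = 0.0217), a rise not called without s1p/s2p mock 2 (0.79), s1p/s2p mock 3 (0.77) or s1p/s2p Tm 2 (0.63). In bzip28/60 and bzip17/60 WRKY70 was also higher with Tm in every library, by 0.65 ± 0.22, adjusted p = 0.129 in bzip28/60 and 0.64 ± 0.22, adjusted p = 0.123 in bzip17/60, not called. WRKY51 gave 0.66 ± 0.28, adjusted p = 0.135 in bzip17/28, without overlap and not called.

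WRKY22 had 54.0, 43.9 and 50.4 CPM with Tm and 32.8, 29.3 and 23.1 CPM in mock in bzip17/28, without overlap (0.80 ± 0.20, adjusted p = 0.0036). That call was lost without bzip17/28 mock 3 (0.67). WRKY25 had 90.4, 92.3 and 80.9 CPM with Tm and 60.3, 67.2 and 66.2 CPM in mock in bzip17/28 (0.44 ± 0.14, adjusted p = 0.0325). In bzip28/60 it had 102, 94.1 and 71.6 CPM with Tm and 61.0, 59.7 and 63.2 CPM in mock (0.54 ± 0.14, adjusted p = 0.0259). Neither pair overlapped, but each call was lost in 5 of the 6 fits that left out a library. The first was lost without bzip17/28 mock 1 (0.40), bzip17/28 mock 2 (0.47), bzip17/28 mock 3 (0.46), bzip17/28 Tm 1 (0.42) or bzip17/28 Tm 2 (0.41). It was also lost without the filter on low counts (0.42). The second was lost without bzip28/60 mock 1 (0.54), bzip28/60 mock 2 (0.52), bzip28/60 mock 3 (0.56), bzip28/60 Tm 1 (0.43) or bzip28/60 Tm 2 (0.50). The summed root markers were lower with Tm in each mutant, at 110.3 to 120.4 CPM with Tm and 317 to 343 CPM in mock in bzip17/28. With Tm and mock they were 214 to 229 and 354 to 415 CPM in bzip28/60. In bzip17/60 they were 142.3 to 187.9 and 316.5 to 336.7 CPM, and in s1p/s2p 121 to 150 and 186 to 235 CPM. Of 10 root markers 6 were called lower in bzip17/28 and 3 in each other line. The shares of all genes called were 11.5% in bzip17/28 and 2.39 to 3.55% in the other lines. The part of these markers in the results was not tested.

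Without an inducer, bzip17/28 differed from WT in 7 of 23 WRKY genes (30.4%), each of them higher, against 17.7% of all genes called and 8.98% called higher. The 7 were WRKY46, WRKY70, WRKY45, WRKY28, WRKY40, WRKY6 and WRKY65. WRKY8 is left out of this count because it passed the filter only through bzip17/28 mock. WRKY70 had 119.6, 135 and 159 CPM in bzip17/28 mock, against 58.4, 43.5 and 32.9 CPM in WT mock (1.62 ± 0.23, adjusted p = 4.89e-06). WRKY46 had 21.7, 33.4 and 37.0 CPM in bzip17/28 mock, against 9.73, 9.68 and 6.69 CPM in WT mock (1.83 ± 0.40, adjusted p = 0.00143). WRKY45 had 58.9, 55.6 and 76.6 CPM in bzip17/28 mock, against 28.6, 20.7 and 20.6 CPM in WT mock (1.45 ± 0.28, adjusted p = 0.000279). None of these groups overlapped, and the 3 calls held in every alternative fit and without any 1 library.

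WRKY65 had 90.0, 98.1 and 91.4 CPM in bzip17/28 mock, against 54.1, 70.5 and 53.5 CPM in WT mock (0.66 ± 0.15, adjusted p = 0.0014). Its groups did not overlap, and this call too held throughout. WRKY28 had 27.5, 23.9 and 27.9 CPM in bzip17/28 mock (0.94 ± 0.29, adjusted p = 0.0196), WRKY40 13.3, 14.0 and 12.6 CPM (0.93 ± 0.34, adjusted p = 0.0464) and WRKY6 18.6, 18.5 and 20.0 CPM (0.78 ± 0.28, adjusted p = 0.0479), each above the WT mock values given earlier. WRKY8 (AT5G46350), which acts in defence and salt tolerance, had 7.09, 9.89 and 5.66 CPM in bzip17/28 mock, against 4.26, 2.07 and 1.12 CPM in WT mock. It is given without a test, since it passed the filter only through this mutant group. WRKY8 and WRKY50 were chosen for description after their values were seen. WRKY28 was not called without bzip17/28 mock 3 (0.91), WT mock 1 (0.82) or WT mock 3 (0.92). WRKY40 was not called without bzip17/28 mock 1 (0.95), bzip17/28 mock 2 (0.91), bzip17/28 mock 3 (0.99), WT mock 2 (0.67) or WT mock 3 (0.91), nor by DESeq2 (0.95) or with a replicate block (0.92). WRKY6 was not called without bzip17/28 mock 1 (0.81), bzip17/28 mock 2 (0.82), bzip17/28 mock 3 (0.76), WT mock 1 (0.68) or WT mock 3 (0.79), nor by DESeq2 (0.79) or without robust fitting (0.78). The count of 7 was 5 by DESeq2 and 4 without bzip17/28 mock library 3 or WT mock library 3.

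Genes of the pathways listed above also differed between bzip17/28 mock and WT mock, and those named here were chosen after their values were seen. Of 6 camalexin and ethylene genes 5 were higher, among them CYP71A12 (3.44 ± 0.42), CYP71A13 (2.57 ± 0.65) and PAD3 (1.67 ± 0.50). Of 6 salicylate genes 4 were higher (PAD4 1.33 ± 0.24, EDS5 1.88 ± 0.41 and PR5 1.11 ± 0.33 among them), and of 9 phosphate genes 5 (RNS1 2.42 ± 0.27, SPX1 1.40 ± 0.18 and PHT1;4 1.91 ± 0.29 among them). Of 14 immune genes 4 were higher and PHI-1 was lower (-1.82 ± 0.24). Of 9 genes for MAP kinases and VQ proteins MKK9 (1.34 ± 0.21) and JAV1 (0.95 ± 0.25) were higher, and of 3 senescence genes ORE1 (0.67 ± 0.20). Of the 7 UPR genes 3 were higher (PDIL1-2 1.18 ± 0.18, BZIP60 0.95 ± 0.13 and BI1 1.04 ± 0.13) and ERDJ3B was lower (-0.67 ± 0.17). Calls made up 22.2% of the MAP kinase and VQ list, 33.3% of the senescence, 35.7% of the immune, 55.6% of the phosphate, 57.1% of the UPR, 66.7% of the salicylate and 83.3% of the camalexin and ethylene lists, against 17.7% of all genes. Root markers, of which 3 of 10 were higher and 1 lower, summed to 317 to 343 CPM in bzip17/28 mock and 295 to 325 CPM in WT mock.

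In the other lines few WRKY genes differed from WT in mock. WRKY25 was lower in bzip17/60, with 52.0, 53.5 and 65.3 CPM, against 86.4, 84.3 and 69.1 CPM in WT mock (-0.49 ± 0.15, adjusted p = 0.0357), the 1 call there against 8.01% of all genes. Its groups did not overlap, but the call was lost without bzip17/60 mock 1 (-0.42), bzip17/60 mock 2 (-0.44), WT mock 1 (-0.41) or WT mock 2 (-0.44), and also without the filter on low counts (-0.49). Without WT mock library 1 the count there was 2. With edgeR 0 of 24 were called in bzip28/60, against 5.04% of all genes, and 0 in s1p/s2p, against 7.19%. At an unadjusted p under 0.05 there were 8 in bzip28/60 and 1 in s1p/s2p, DESeq2 called 1 and 0, and limma-voom 0 and 0. The median of the 24 log2 fold changes was 0.73 in bzip17/28 (0.70 over 23 without WRKY8), -0.29 in bzip28/60, -0.24 in bzip17/60 and -0.02 in s1p/s2p.

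**Figure D5:**
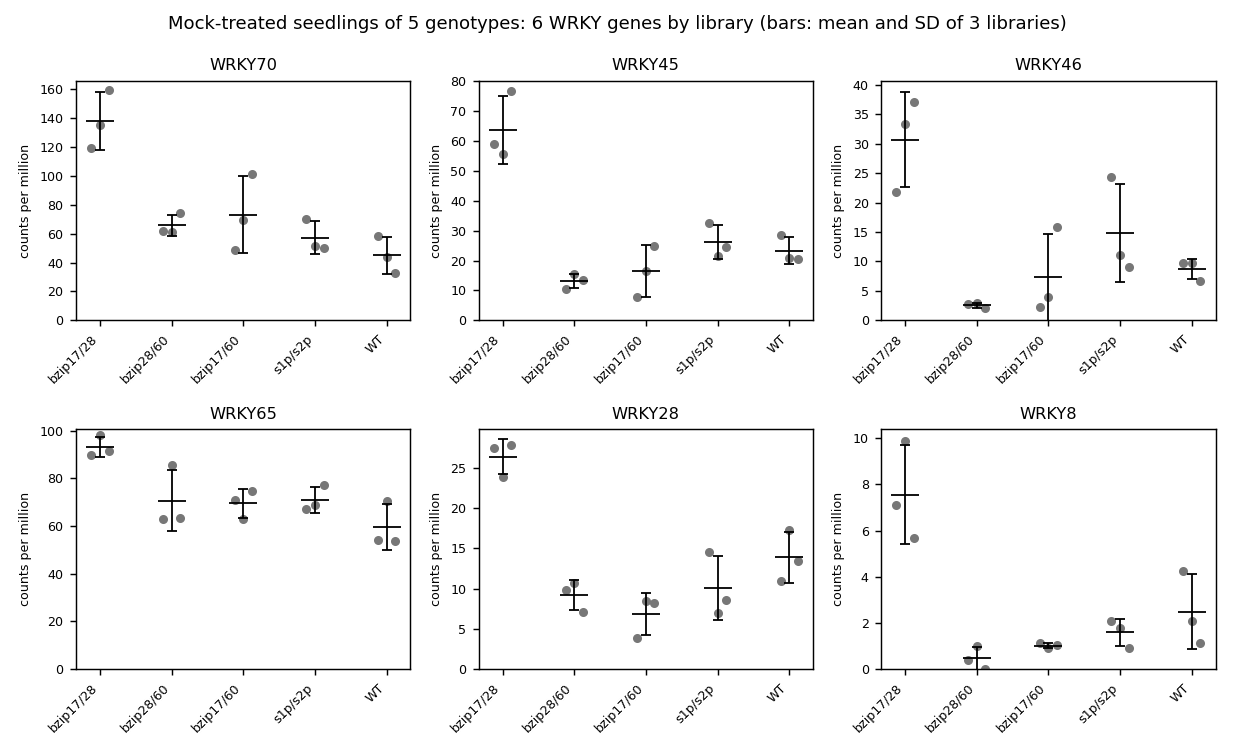
CPM (vertical axes) of 6 WRKY genes in mock-treated bzip17/28, bzip28/60, bzip17/60, s1p/s2p and WT; horizontal bars are means and error bars SD of 3 libraries. In bzip17/28 all 6 genes lie above the WT libraries, at 119.6 to 159 CPM for WRKY70. Of the 24 tested members 12 lay wholly above WT mock and 2 wholly below, against 18.8% and 17.4% of all genes. WRKY8 passed the filter only through bzip17/28 mock.

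There were 5 tested members called in none of the 18 comparisons planned or the 4 added: WRKY15, WRKY23, WRKY29, WRKY48 and WRKY54. Their group means spanned 0.709 to 5.39 CPM for WRKY15, 2.63 to 8.59 CPM for WRKY23, 1.92 to 6.48 CPM for WRKY29, 7.85 to 15.8 CPM for WRKY48 and 1.66 to 8.17 CPM for WRKY54. WRKY48 restrains resistance to bacteria, WRKY23 acts in root growth under auxin, and WRKY54 is a close relative of WRKY70. Their values with DTT were 1.18 ± 0.66 for WRKY15, -1.08 ± 0.47 for WRKY23, -0.32 ± 0.59 for WRKY29, 0.79 ± 0.34 for WRKY48 and 0.35 ± 0.66 for WRKY54.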

How the data were processed

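Reads from the 3' end of mRNA in whole seedlings were processed by the authors, who deposited raw counts per transcript model, and the submitters' processing notes name HTSeq 0.6.0, TopHat2 2.1.1, Trim Galore 0.2.8 and SAMtools. The build, annotation and strand setting are not given in the sources used here. Counts were summed over the models of a locus. A read that fits several models is set aside as ambiguous (39.9 to 42.8% of each library), so genes with several models are undercounted. Reads on no feature (2.69 to 6.32%) stayed out of library sizes.

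A model with 1 mean per group was fitted to all 36 libraries (24 residual degrees of freedom) with edgeR 4.0.16's quasi-likelihood test, TMM scaling, robust fitting and the filterByExpr filter in R 4.3.3, with Benjamini-Hochberg adjustment over 10480 genes. Alternatives used DESeq2 1.42.0, limma 3.58.1 (voom), library size alone, no filter, own libraries, a replicate block and each library left out. Where the libraries or the filter changed, the counts of calls can include members not tested in the main fit. Members of the family and of the gene lists were chosen with earlier results of these data known. Values per library are given for members called in a WT comparison of an agent with mock or in 2 of the 18 comparisons, and the list genes named are those called among the 3 with the lowest p of each list. For Tm in bzip17/28 and for bzip17/28 mock, members that passed the filter through a group compared were left out of the count, a choice made after seeing the data. For DTT in WT the counts are given with and without WRKY15. The subgroups follow the published classification and were not checked against protein sequences. Locus names of 57130 of 58699 models matched RefSeq's TAIR10.1. Tested on simulated counts for DTT against mock, with 10139 genes, the fit recovered 98% of genes raised and 87.2% of genes lowered by 2 on the log2 scale, and 70% and 53.1% at 1. False genes made up 2.58% of its calls. The simulation gave each gene the same spread in all groups and changed few genes. The real spread was widest with Tm in WT (28.2%), so these figures do not cover the comparisons with Tm. Where a group had 1 to 3 counts, ratios carry a 95% interval for counting error only.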

Additional observations from a re-analysis of the deposited data

Results flagged for a closer look

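The response of WRKY21 to Tm in bzip28/60 differed from that in WT by a tested difference of 0.96 on the log2 scale (SE 0.23, adjusted p = 0.0081, edgeR), a call lost with only its own libraries fitted (1 of 9 alternatives) and in 0 of 12 fits that left out a library. The same test for WRKY65 in bzip28/60 gave 0.89 (SE 0.23, adjusted p = 0.0162), lost in 2 of 9 alternatives and 2 of 12 fits that left out a library. For WRKY21 in bzip17/60 the tested difference from WT was 0.75 (SE 0.23, adjusted p = 0.0484), a call lost in 4 of 9 alternatives and in 10 of 12 fits that left out a library. The response of WRKY18 in bzip17/28 was lower than in bzip28/60, with a tested difference (bzip17/28 minus bzip28/60) of -2.77 (SE 0.70, adjusted p = 0.0145), in a comparison added after the data were seen, and it was lost in 3 of 12 fits that left out a library. The causes of these differences were not tested.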

How the results depend on the processing

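The number of WRKY genes called moved by more than 1.5 times under these alternatives. With only the libraries of the comparison fitted it was 1 for Tm against mock in WT, 1 for Tm against AZC, 6 for Tm in bzip28/60, 0 for the response of bzip28/60 and 0 for that of bzip17/60 against WT, and 2 for bzip28/60 against WT in mock. By limma-voom with a spread per group these were 3, 2, 6, 1 and 0 for the first 5. DESeq2 called 5 with AZC, 2 for the response of bzip17/60 against WT, 5 for bzip17/28 mock, 1 for bzip28/60 mock and 2 for bzip17/60 mock. Without a filter on low counts it was 4 for Tm in bzip28/60, 2 for the response of s1p/s2p against WT and 2 for bzip28/60 mock. For bzip17/60 mock it was 2 with library size alone and 2 without robust fitting. Among the comparisons added after seeing the data, bzip17/28 against bzip17/60 gave 1 by DESeq2, own libraries, limma-voom and without robust fitting, an alternative also added later. Against bzip28/60, bzip17/28 gave 2 without the filter, 4 with own libraries and 3 by limma-voom. s1p/s2p gave 1 against bzip17/60 by own libraries or limma-voom, and 1 against bzip28/60 without the filter or by own libraries. Causes of these changes were not tested. The share of all genes called is not given for these fits or for those that left out 1 library. The counts therefore do not show a change particular to the WRKY genes.

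Leaving out 1 library at a time gave 5 to 9 calls for Tm, 10 to 12 for DTT and 0 to 3 for AZC in WT, 10 to 13 for Tm against DTT, 3 to 6 for Tm against AZC and 7 to 9 for DTT against AZC. With Tm it gave 3 to 6 in bzip17/28 (WRKY50 counted), 0 to 2 in bzip28/60, 1 to 2 in bzip17/60 and 3 to 5 in s1p/s2p. For responses against WT it gave 0 to 4 in bzip17/28, 1 to 3 in bzip28/60, 0 to 4 in bzip17/60 and 0 to 2 in s1p/s2p. In mock it gave 4 to 6 in bzip17/28 (WRKY8 counted), 0 in bzip28/60 and s1p/s2p and 0 to 2 in bzip17/60. The added comparisons gave 0 to 1. With 1 library left out a group holds 2, and the spread is pooled over all groups. The filter was redone in each such fit and all 43 members were eligible, so a count can include members not tested above. Without WT Tm library 3, Tm against DTT called 13 members, of which 11 were among the 23 tested genes other than WRKY15.

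With a replicate block the response of bzip17/60 against WT gave 0 calls (WRKY21, 0.75), and WRKY40 lost its call in bzip17/28 mock (0.92). The block ended no other call of a WRKY gene named in the text. Repeats with the same number did not pair: 0 of 14 comparisons had all 3 correlations of deviations above 0.1. Over the named genes and alternatives, 1016 values kept direction and call, 160 lost the call, 2 gained it and 0 reversed. With library size alone the median over all tested genes moved most in 2 comparisons, by 0.103 for Tm in bzip17/60 and by 0.109 for bzip17/28 mock. Counts of low genes limit what depth can show.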
